A study of Homo sapiens with 16 samples.

Results

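The regions described here were the ChIP-seq peaks of γ-tubulin around the centromeres of chromosomes 16 to 20. A peak was included when it overlapped, in the genome build hg19, chromosome 16 from 31000000 to 47500000, chromosome 17 from 21000000 to 26500000, chromosome 18 from 14000000 to 19500000, chromosome 19 from 23000000 to 29000000 or chromosome 20 from 25000000 to 30500000. These 5 windows held 359 of the 2933 nuclear peaks in the 4 deposited lists, which hold 2962 peaks with those of mitochondrial DNA. The rule used position alone and no measured value. No member lay near an edge: the closest was 0.642 Mb inside its window, on chromosome 16, and moving every edge by 500 kb outwards or inwards left each count as it was.

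MCF10A is a non-tumourigenic cell line of human breast epithelium. MCF10A cells, and a population of the same line that stably carried a plasmid for shRNA against γTubulin and was kept under Zeocin (γTubulinsh-MCF10A, called knockdown cells below), were arrested at the start of S-phase with a double thymidine block and collected 1 h or 2 h after release. Both populations thus went through the same block, and no population with a control shRNA is part of the 4 conditions. The shRNA lowers γ-tubulin and does not remove it, and 1 stable population stood for the knockdown. Each condition had 2 libraries of DNA pulled down with γ-tubulin antibodies and 2 libraries of whole cell extract, the control that shows how much DNA of each place was there without antibody, 16 libraries in all. The lists give 1 set of peaks per condition, made from both ChIP libraries together, so no value below has an SD between replicates and no comparison between conditions was tested.

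γ-Tubulin is known for starting new microtubules at the centrosome, and a pool of it is found in the nucleus. Centromeres are built on long arrays of satellite repeats and are flanked by pericentromeric heterochromatin, where satellites and duplicated segments alternate, and chromosome 16 carries a particularly large block of such heterochromatin on its long arm. A reference assembly such as hg19 holds the inner arrays as gaps and keeps fewer copies of the satellites next to them than a genome has, so reads of copies that the assembly lacks can be placed on the copies it has. No sequence or gene annotation of hg19 was used here, so neither the repeats nor any genes under these peaks are named, and no bases are shown.

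In these windows MCF10A cells had more peaks than knockdown cells at both times, with 114 and 54 at 1 h and 185 and 6 at 2 h. The number thus rose from 1 h to 2 h in MCF10A cells and fell in knockdown cells. As a share of all nuclear peaks of a list, the windows held 11.0% of the peaks of 1 h MCF10A cells and 12.1% at 2 h. In knockdown cells they held 18.8% at 1 h and 7.59% at 2 h. The number for all nuclear peaks moved in the same directions, from 1035 to 1531 in MCF10A cells and from 288 to 79 in knockdown cells, so neither direction belonged to the windows alone. The order MCF10A above knockdown at both times, the rise and the fall were seen under all 13 settings examined.

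Chromosome 16 held most of these peaks. Its window gave 88 peaks in 1 h MCF10A cells, 45 in 1 h knockdown cells, 103 in 2 h MCF10A cells and 5 in 2 h knockdown cells. In relation to the size of the windows, chromosome 16 led at 1 h in MCF10A cells with 5.33 peaks per Mb, followed by chromosome 20 with 2.00 and chromosome 17 with 1.82. At 2 h the densities of MCF10A cells were closer to each other, 6.24 on chromosome 16, 5.45 on chromosome 17 and 4.55 on chromosome 20. Chromosomes 18 and 19 had the fewest at both times, with 2 and 3 peaks in 1 h MCF10A cells and 13 and 14 at 2 h, and neither had a peak in knockdown cells. Chromosome 17 went from 10 to 30 peaks in MCF10A cells and held 1 peak of knockdown cells, at 1 h. Chromosome 20 went from 11 to 25 in MCF10A cells and from 8 to 1 in knockdown cells. The rise in MCF10A cells was thus seen on each of the 5 chromosomes, and the share of chromosome 16 in the members of MCF10A cells went from 77.2% at 1 h to 55.7% at 2 h.

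**Figure D1:**
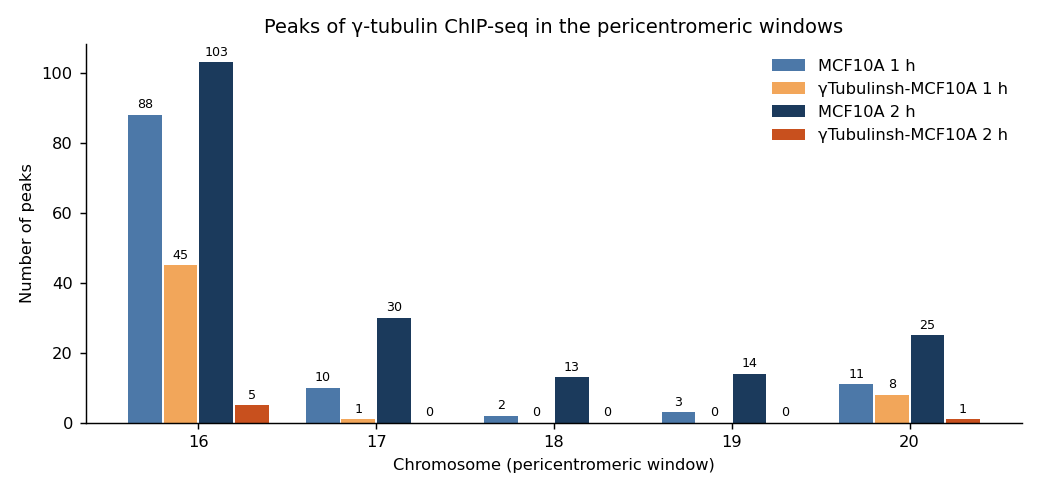
Number of γ-tubulin peaks (y axis) in the pericentromeric window of each chromosome (x axis), with 1 bar per condition; each bar is 1 list made from 2 pooled libraries and has no error. Chromosome 16 has the highest bars in every condition, and chromosomes 18 and 19 have no peak of knockdown cells.

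The windows took in nearly all peaks of some chromosomes and few of others. They held 241 of the 251 nuclear peaks of chromosome 16 (96.0%), 45 of 52 on chromosome 20 (86.5%), 17 of 21 on chromosome 19 (81.0%) and 41 of 55 on chromosome 17 (74.5%). On chromosome 18 the share was lower, 15 of 34 (44.1%). Outside the window, the next peak of chromosome 16 was on the long arm at 55637410, and no peak of any list lay on its short arm before the window.

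Each window was crossed by a long stretch without a summit. It measured 11.1 Mb on chromosome 16, 3001713 bp on chromosome 17, 3.11 Mb on chromosome 18, 3.19 Mb on chromosome 19 and 3.27 Mb on chromosome 20. Peaks before and after it are called here the short-arm and the long-arm side. The sides were filled unevenly, with 175 of 241 peaks of chromosome 16 on the long-arm side, 38 of 45 on chromosome 20, 16 of 17 on chromosome 19 and 14 of 15 on chromosome 18. Chromosome 17 was the other way round, with 29 of 41 on the short-arm side. In 2 h MCF10A cells the same sides led, with 59 of 103 peaks of chromosome 16 on the long-arm side and 23 of 30 peaks of chromosome 17 on the short-arm side. On the short-arm side of chromosome 16, MCF10A cells went from 18 peaks at 1 h to 44 at 2 h. The long-arm side of chromosome 16 went from 70 to 59 over the same hour. Only here and on the short-arm side of chromosome 18, which went from 1 to 0, was the number of MCF10A cells lower at 2 h.

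Peaks of any list lying within 5 kb of each other were joined into runs, a limit chosen after the data were seen. The 359 peaks made up 28 runs, of which the largest held 165 peaks. This run opened the long-arm side of chromosome 16, from 46385848 to 46435475. It held 67 peaks of MCF10A cells and 41 of 1 h knockdown cells, and 52 and 5 at 2 h. With peaks joined within 100 kb it extended to 46500374 and held 70, 41, 59 and 5. 2 h MCF10A cells therefore had fewer peaks here than at 1 h, but more of the run was covered. Of its 49628 bp, peaks covered 21021 bp (42.4%) in 1 h MCF10A cells and 31089 bp (62.6%) at 2 h. In knockdown cells they covered 6758 bp (13.6%) at 1 h and 751 bp (1.51%) at 2 h.

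The loss in number between 1 h and 2 h in MCF10A cells went with joining of peaks. Each of the 67 peaks of 1 h met a peak of 2 h and 99.9% of their bases lay inside peaks at 2 h, whereas 18 of the 52 peaks at 2 h each met several peaks of 1 h, up to 6. The median length of a peak in the run was 218 bp at 1 h and 426.5 bp at 2 h, and the longest peak went from 1258 bp to 2520 bp. The latter, from 46387765 to 46390284, was the longest of all peaks in the windows. A minority of the peaks at 2 h, 11 of 52, met no peak of 1 h. The peaks of knockdown cells lay within the same bases. At 1 h, 99.6% of their 6758 bp were under peaks of 1 h MCF10A cells and 100% under peaks of 2 h MCF10A cells, and at 2 h all 751 bp were under peaks of MCF10A cells at either time.

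**Figure D2:**
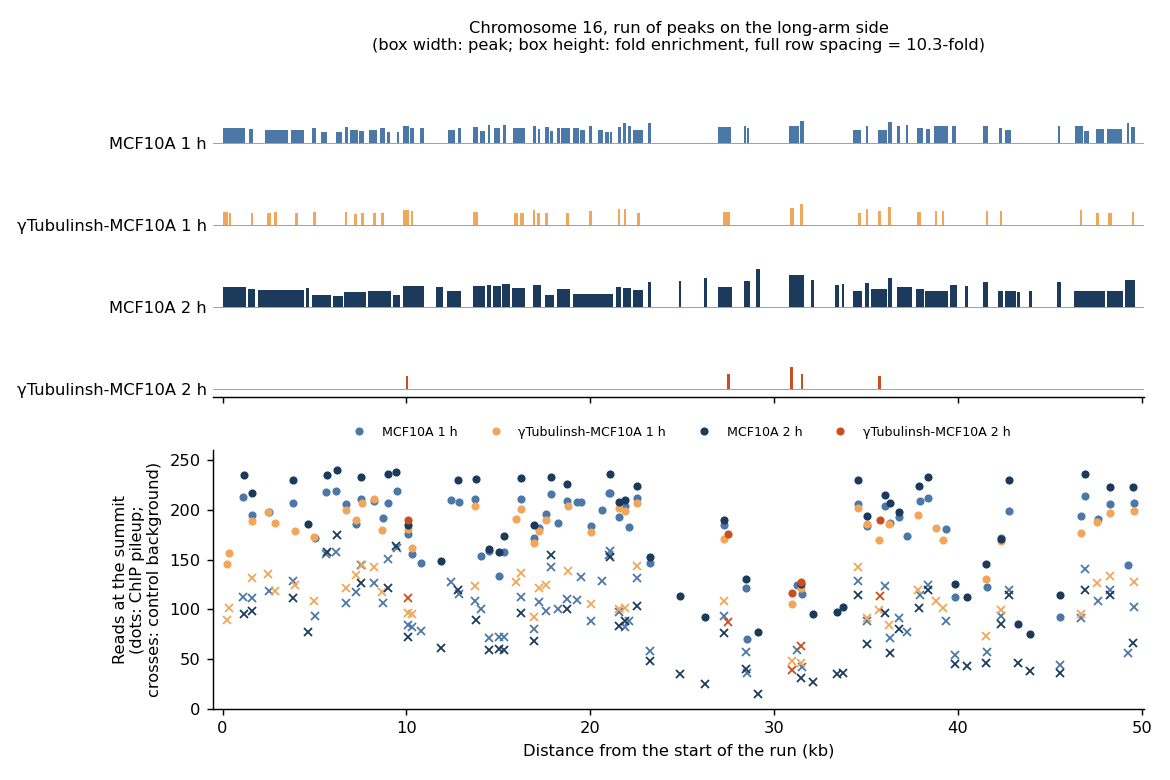
Upper panel, peaks of each list in the largest run of chromosome 16, drawn to scale along the distance from the start of the run in kb (x axis), with the height of a box proportional to its fold enrichment. Lower panel, the reads at each summit over the same distance, with dots for the ChIP pileup and crosses for the control background; the pileups of 2 h knockdown cells are shown before scaling by 0.943. The peaks of 2 h MCF10A cells cover 62.6% of the run, those of 2 h knockdown cells are 5, and pileups reach 240 reads where control backgrounds are high as well.

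The fold enrichment in this run was low and its control background high. The fold enrichment is the deposited ratio of the ChIP pileup, that is the reads over the summit, to the control background expected there, each with 1 added. Its median was 1.86 in MCF10A cells and 1.60 in 1 h knockdown cells, and 2.44 and 1.90 at 2 h. Pileup and background were both solved from the deposited fold enrichment and p-value. The median pileup was 194, 186, 202.5 and 176 reads in 1 h MCF10A, 1 h knockdown, 2 h MCF10A and 2 h knockdown. The last value is given before scaling by 0.943. Relative to the lowest background of its list, taken as that of an average place in the genome, the median background was 76.0, 91.7, 46.3 and 52.4 times in the same order. The whole cell extract was therefore enriched for DNA of this run in every condition.

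The highest pileups of nuclear peaks came close to a fixed number in 3 of the 4 lists. The largest pileup of any nuclear peak was 219 reads in 1 h MCF10A cells, 211 in 1 h knockdown cells and 240 in 2 h MCF10A cells. These lay at or just under 2 times the shortest peak length in each list, which is 220, 212 and 240. In 2 h knockdown cells the largest was 197 of 230, and 227 when the peaks of mitochondrial DNA were included. This is the most that could be reached if a single read per position and strand was kept and the shortest peak equals the fragment length, a setting not given in the sources used here. In the largest run, 48 of 67 peaks of 1 h MCF10A cells (71.6%), 33 of 41 of 1 h knockdown cells (80.5%) 28 of 52 of 2 h MCF10A cells (53.8%) and 2 of 5 of 2 h knockdown cells had a pileup of at least 80% of that number. Outside the windows it was 2.82%, 5.13%, 2.15% and 1.37% of the nuclear peaks of these lists. If such a limit held, pileups near it can differ little, so no likeness of pileups between lists is read from this run. Whether such a limit held down the fold enrichments of the run was not tested.

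5 places in the windows carried a peak in all 4 lists, 4 of them in the largest run. The first ran from 46395645 to 46396823. At the summits that lay closest to each other, pileups were 176 reads in 1 h MCF10A cells, 181 in 1 h knockdown cells, 185 in 2 h MCF10A cells and 190, before scaling by 0.943, in 2 h knockdown cells. The control backgrounds were 84.0, 96.5, 71.7 and 112 reads in the same order, and the fold enrichments 2.08, 1.87, 2.56 and 1.60. The list with the lowest control background had the highest fold enrichment, while the pileups were not far below the limit described above. The peak widths followed the same order, with 331, 303, 1179 and 115 bp.

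The second and the fourth of these places, from 46412780 to 46413533 and from 46421108 to 46421976, also had a high control. At the second, the fold enrichment was 1.97 and 1.57 in MCF10A and 1 h knockdown cells and 2.47 and 1.90 at 2 h. At the fourth it was 1.65 and 1.71 at 1 h and 2.21 and 1.58 at 2 h, which put knockdown above 1 h MCF10A cells, although the summits of these lists lay apart there, at 46421571 and 46421867. 2 h MCF10A cells had the highest value at both places. At the second, the control backgrounds were 93.5 reads in MCF10A and 108 in knockdown cells at 1 h, and 76.4 and 87.0 at 2 h. At the fourth they were 123 and 99.2 reads at 1 h and 96.8 and 113 at 2 h. The order of the fold enrichments was not the full reverse of that of the controls at either place.

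The third place, from 46416648 to 46417455, had a lower control, between 18.3 and 42.1 times the lowest of the list. It held 1 long peak of 2 h MCF10A cells, enriched 3.93-fold and scored at 306, where the score is 10 times the −log10 q-value. Each other list had 2 peaks there. At the summits near 46417330, fold enrichments were 2.70 in 1 h MCF10A cells, 2.58 in 1 h knockdown cells and 1.90 in 2 h knockdown cells. Their pileups were 115, 121 and 128 reads, the last before scaling by 0.943. The peak of 2 h knockdown cells from 46416691 to 46416885 had the highest score of that list in the windows, 136.

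The fifth place was on chromosome 20, from 29829298 to 29829838, and stood apart from the others by its lower pileups. Pileups were 95 reads in 1 h MCF10A cells, 98 in 1 h knockdown cells and 89 in 2 h MCF10A cells. In 2 h knockdown cells the pileup was 86 reads before scaling by 0.943. The fold enrichments spread more widely, with 3.69, 2.38, 4.20 and 1.83, as did the control backgrounds, with 25.0, 40.5, 20.4 and 44.0 reads. The order of the fold enrichments was the reverse of the order of the control backgrounds here, as at the first place. It was not so at the second and the fourth. The control is the divisor of the fold enrichment by definition, so no cause is read from these orders.

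Outside the largest run, peaks were mostly those of MCF10A cells. On chromosomes 17 and 20 and in the 2 short-arm runs of chromosome 16 below, their median fold enrichments exceeded those of the run. In the run of chromosome 19 the medians were lower than in the largest run at both times, with 1.73 and 1.77. The run of chromosome 18 was also lower at 2 h, with 2.31. On the short-arm side of chromosome 16, a run from 33866530 to 33901881 held 10 peaks of 1 h MCF10A cells and 27 at 2 h, and 1 of knockdown cells, at 1 h. A second run from 34180513 to 34196599 held 6 and 14 peaks of MCF10A cells and none of knockdown cells. The median fold enrichments of MCF10A cells were 3.49 at 1 h and 5.02 at 2 h in the first run and 3.92 and 5.23 in the second, and the highest was 7.74 at 2 h in the second. The control was far lower here than on the long-arm side, with medians of 8.64 times the lowest of the list at 1 h and 2.70 times at 2 h in the first run and 4.03 and 2.10 times in the second.

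On chromosome 17, the run with the most peaks lay from 22244726 to 22261654 and ended at the long stretch without a summit. It held 6 peaks of 1 h MCF10A cells and 23 at 2 h, and none of knockdown cells. At 2 h the peaks followed each other closely, with a median distance of 623.5 bp between summits, no gap over 1354 bp, and 34.7% of the run covered. The median fold enrichment was 2.44 at 1 h and 2.82 at 2 h. The highest score of 2 h MCF10A cells on this chromosome, 241, was that of a peak there, from 22258530 to 22258701, and its fold enrichment was 4.17. On the long-arm side, a run from 25263203 to 25267477 held 3 peaks of 1 h MCF10A cells, 6 at 2 h and the single peak of knockdown cells on chromosome 17. The latter, from 25263794 to 25263917, had a fold enrichment of 2.29. A place from 25512640 to 25512765 held the peak with the highest score of 1 h MCF10A cells on this chromosome, 112, and a peak at 2 h.

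On chromosome 18, nearly all peaks lay in a run of 8996 bp at the long-arm side, from 18511040 to 18520035. It held 1 peak of 1 h MCF10A cells and 13 at 2 h. The 13 peaks had fold enrichments between 1.56 and 3.83 with a median of 2.31, and the highest score was 137, from 18518980 to 18519108. Their control background was 24.1 times the lowest of the list (median). The peak at 1 h lay at the same place as one of the 13, had a fold enrichment of 1.88 and a control background of 39.9 times the lowest of its list. The only other peak of the window, from 15404788 to 15404897 on the short-arm side, was found in 1 h MCF10A cells alone and rested on a pileup of 19 reads.

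Chromosome 19 had a like pattern, with a run from 27732054 to 27739463 holding 3 peaks of 1 h MCF10A cells and 8 at 2 h. Fold enrichments were low, between 1.42 and 2.07 at 1 h and between 1.41 and 2.45 at 2 h, over control backgrounds of 49.6 and 46.4 times the lowest of the list (medians). The peak with the highest score was at the same place at both times, from 27734077 to 27734198 at 1 h (score 68) and from 27734067 to 27734207 at 2 h (score 118). Farther along the long-arm side, up to 27899195, were 5 single peaks of 2 h MCF10A cells with fold enrichments between 3.95 and 7.03 and pileups of 17 to 24 reads. These differed from the run in that the control was lower, from 1.01 to 3.14 times the lowest of the list.

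On chromosome 20, the main run lay from 29804351 to 29832225 on the long-arm side, with 11 peaks of MCF10A and 4 of 1 h knockdown cells and 21 and 1 at 2 h. Over the whole window the median fold enrichment of MCF10A cells was 4.12 at 1 h and 4.96 at 2 h, above the medians of the other 4 windows at either time. The peak from 29822921 to 29823054 of 1 h MCF10A cells had the highest fold enrichment of any member, 10.4, on a pileup of 43 reads, and was scored at 271. A peak of 1 h knockdown cells at the same place, from 29822943 to 29823057, had a pileup of 48 reads and a fold enrichment of 4.49. The control background was 3.22 reads in the former and 9.92 reads in the latter list. The former peak was named for its score and had the highest fold enrichment, which favours a low control in its own list. No difference between the populations is read from this pair.

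**Figure D3:**
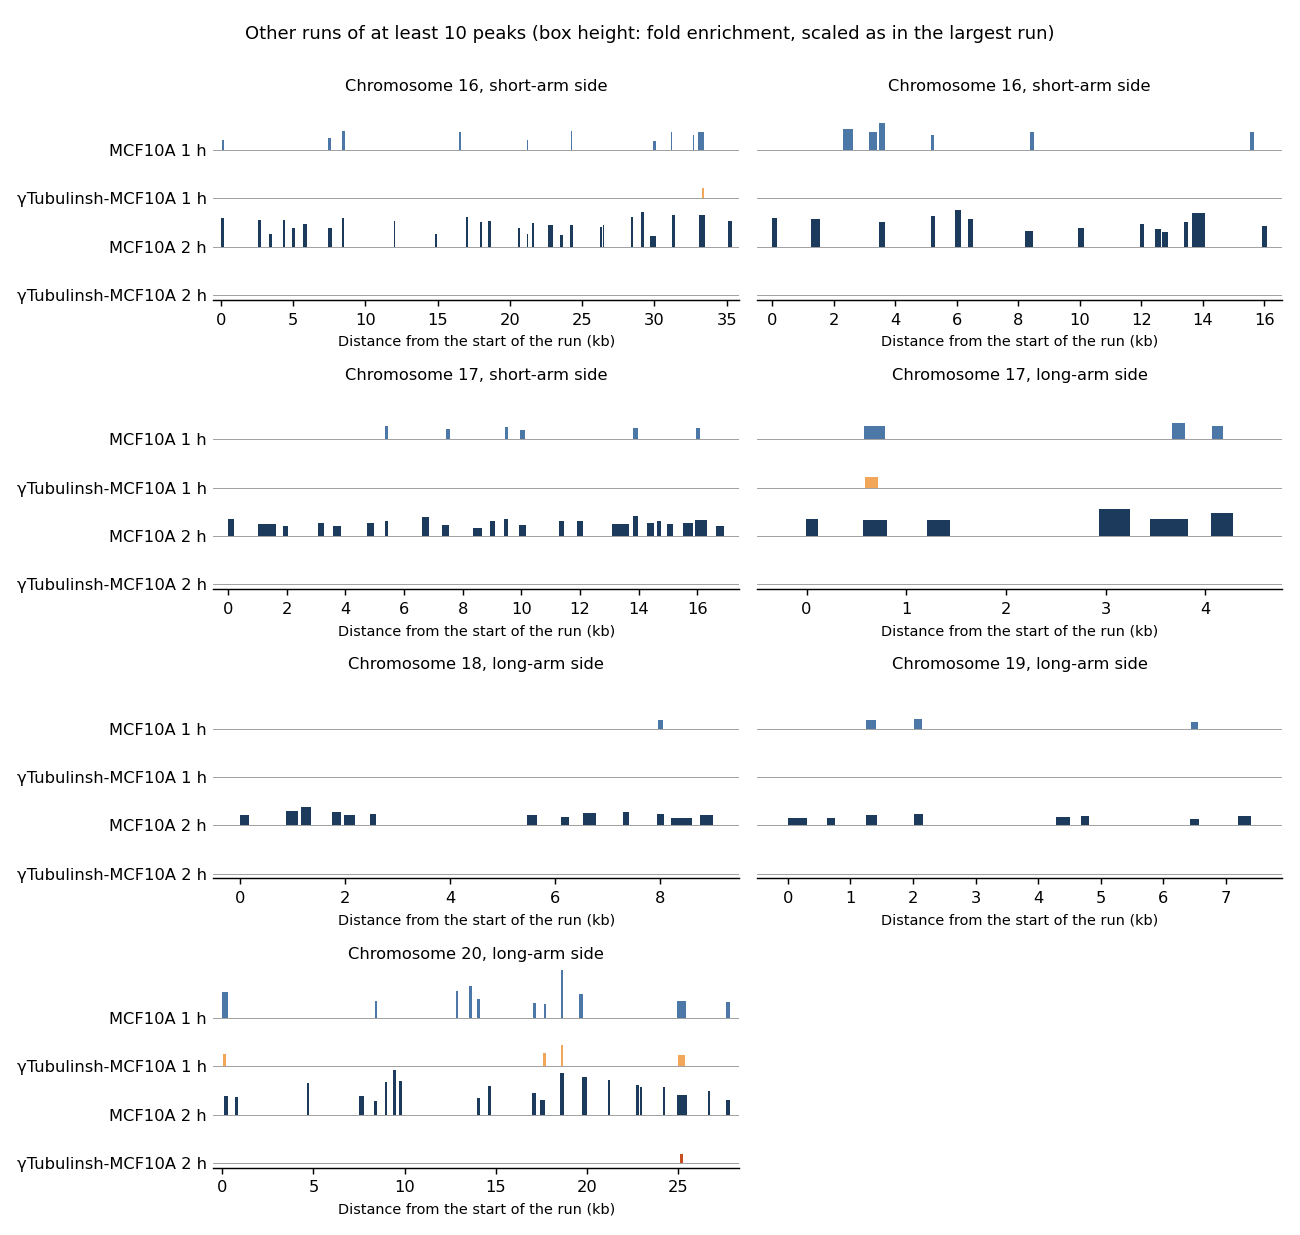
Peaks of each list in the 7 other runs with at least 10 peaks, drawn to scale along the distance from the start of each run in kb (x axis), with box heights proportional to fold enrichment and 1 row per condition. Rows of knockdown cells are empty in 4 of the 7 runs at 1 h and hold 1 peak in all at 2 h, on chromosome 20.

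A few peaks were found in knockdown cells alone, in 2 runs picked after their values were seen. Of the 54 peaks of 1 h knockdown cells, 7 overlapped no peak of another list (13.0%), compared with 17.0% of all nuclear peaks of that list. All 7 were on short-arm sides. There were 3 on chromosome 16 from 33963041 to 33964107, with fold enrichments between 2.10 and 2.51, and 4 on chromosome 20 from 26188779 to 26190299, with fold enrichments between 1.97 and 4.98. Their control background was 5.80 to 31.6 times the lowest of the list. No peak of 2 h knockdown cells was found in that list alone.

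Peaks in the windows were longer than other nuclear peaks in the median of each list, most clearly at 1 h in MCF10A cells. The median length was 182 bp in the windows and 148 bp elsewhere in 1 h MCF10A cells, and 205 and 179.5 bp at 2 h. In knockdown cells it was 146.5 and 135 bp at 1 h and 156.5 and 140 bp at 2 h. The longer peaks were those of chromosome 16, with a median of 203 bp in 1 h MCF10A cells and 226 bp at 2 h. In its largest run the medians were 218 and 426.5 bp. Its 2 short-arm runs named above had 140.5 and 151 bp at 1 h and 169 and 185.5 bp at 2 h. Chromosome 17 had 140 bp at 1 h and 225 bp at 2 h, and chromosome 20 had 177 and 171 bp. Peaks of at least 400 bp made up 15.8% of the members in 1 h MCF10A cells and 19.5% at 2 h. Among other nuclear peaks they made up 5.10% and 12.1%. There were none among the members of knockdown cells, compared with 2.99% of other nuclear peaks at 1 h and 5.48% at 2 h. The shortest peak allowed differed between lists, 110, 106, 120 and 115 bp, and the part of this in the differences between lists was not tested.

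Neighbouring summits of a list were most often less than 1 kb apart. The median distance was 707 bp in MCF10A and 914 bp in 1 h knockdown cells, and 919.5 bp in 2 h MCF10A cells. For other nuclear peaks it was 1508, 2976 and 1011.5 bp. Over all windows together, the closer spacing of the members was clear at 1 h and small at 2 h. Distances under 1 kb made up 61.5%, 56.9% and 55.0% of all distances in these 3 lists. The 6 peaks of 2 h knockdown cells gave 4 distances between 533 and 17419 bp. By chromosome, spacing in 1 h MCF10A cells was closest on chromosome 16, with a median of 596 bp, and at 2 h on chromosomes 18 and 17, with 579.5 and 637 bp. Chromosome 16 went to 945.5 bp at 2 h, and chromosome 20 went from 1875 to 1286.5 bp. Chromosome 17 had 2177 bp at 1 h, and chromosome 19 had 2547.5 bp at 1 h and 2297 bp at 2 h. Chromosome 18 gave 1 distance at 1 h, of 3114250 bp. In MCF10A cells, spacing closer than that of other nuclear peaks was thus seen on chromosome 16 alone at 1 h. There it belonged to the largest run, with a median of 505 bp, as the short-arm runs named above had 3126 and 1687 bp. At 2 h closer spacing was seen on chromosomes 16, 17 and 18. On chromosome 16 the largest run then had 831 bp and the short-arm runs 976.5 and 1261 bp.

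**Figure D4:**
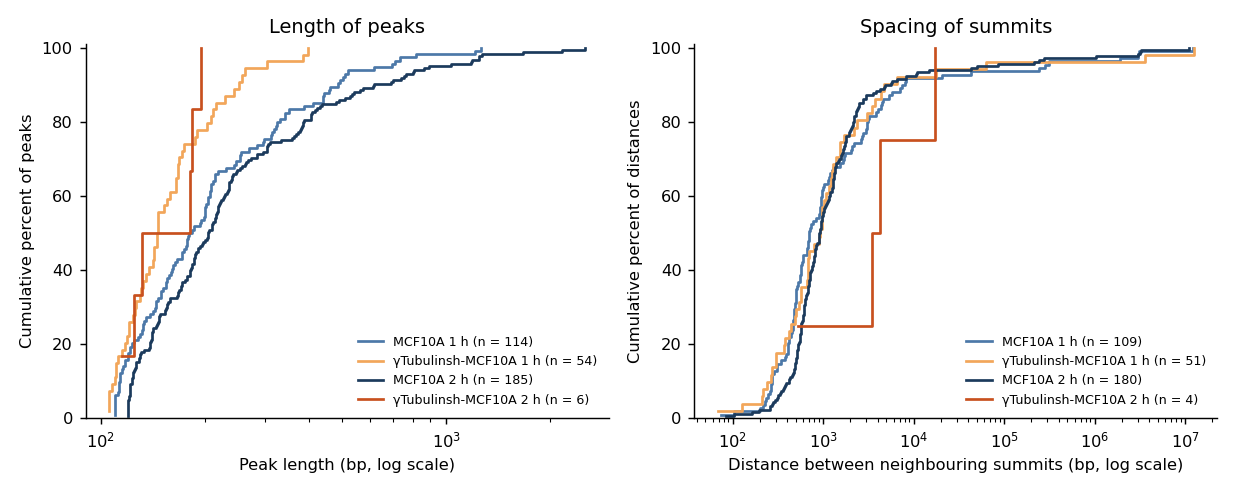
Cumulative percent (y axes) of the members of each list by peak length in bp (left, log scale) and of the distances between neighbouring summits of the same list and chromosome in bp (right, log scale). The curves of 1 h knockdown cells end at 398 bp and those of 2 h MCF10A cells at 2520 bp, while the spacing curves of the 3 longer lists run close together with medians of 707 to 919.5 bp.

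Lists were then compared by peaks that overlapped by at least 1 bp. Of the 114 peaks of 1 h MCF10A cells, 103 were met by a 2 h peak of MCF10A cells (90.4%), above the 72.1% of all nuclear peaks. In the other direction, 77 of 185 peaks at 2 h overlapped a peak of 1 h (41.6%), near the 44.2% of all nuclear peaks. Both shares rested on the largest run, where all 67 peaks of 1 h were met at 2 h. Without it, 76.6% of the peaks of 1 h were met at 2 h, close to the share of all nuclear peaks, and 27.1% of the peaks of 2 h met one of 1 h, below it. Of the 185 peaks of 2 h MCF10A cells, 108 overlapped no peak of another list (58.4%, compared with 53.6% of all nuclear peaks). By chromosome, the share of peaks at 2 h that met a peak of 1 h was 52.4% on chromosome 16, 36.0% on chromosome 20, 33.3% on chromosome 17, 21.4% on chromosome 19 and 7.69% on chromosome 18.

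The peaks of knockdown cells were mostly among those of MCF10A cells. At 1 h, 47 of 54 overlapped a peak of MCF10A cells (87.0%), compared with 73.6% of all nuclear peaks. This share rested on the largest run: of the 13 peaks of knockdown cells outside it, 46.2% did. Seen from 1 h MCF10A cells, 43 of 114 peaks overlapped one of knockdown cells (37.7%), compared with 19.5% of all nuclear peaks. Here, too, the run set the share, as 37 of the 43 lay in it, and of the 47 peaks outside it 6 overlapped one of knockdown cells (12.8%), below the share of all nuclear peaks. At 2 h, each of the 6 peaks of knockdown cells, 5 of them in the largest run, overlapped a peak of MCF10A cells, compared with 65.8% of all nuclear peaks. Of the 185 peaks of MCF10A cells, 5 were met (2.70%, compared with 3.27%).

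Between the times in knockdown cells, all 6 peaks of 2 h overlapped a peak of 1 h, compared with 51.9% of all nuclear peaks, and 6 of 54 peaks of 1 h were met (11.1%, compared with 13.2%). The 6 peaks were also met in both lists of MCF10A cells, and thus in all 3 other lists, whereas 35.4% of all nuclear peaks of 2 h knockdown cells did. The peaks that were left at 2 h in these windows thus lay at places with a peak in every condition. Of the 6, 5 lay in the largest run, of which peaks of MCF10A cells covered 42.4% at 1 h and 62.6% at 2 h. An overlap of 1 bp is easily reached there. With an overlap of at least 50% of both peaks, 0% of them were shared with 2 h MCF10A cells. Peaks of 1 run are not independent of each other, and no interval or test is given for these shares.

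Counted as places, with overlapping peaks of any list counted as 1 place, the windows held 203 loci. A single list gave 126 of them, of which 2 h MCF10A cells gave 108, 1 h MCF10A cells 11 and 1 h knockdown cells 7. The 11 are 9.65% of the peaks of 1 h MCF10A cells in the windows, compared with 26.7% of all nuclear peaks of that list that overlapped no peak of another. Both MCF10A lists and no other shared 42, these and 1 h knockdown cells shared 30, and all 4 lists shared 5. Of the 35 loci in 3 or 4 lists, 30 were on chromosome 16, 4 on chromosome 20, 1 on chromosome 17 and none on chromosomes 18 and 19.

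Where lists shared a peak, their summits were close in some comparisons and less so in others. The summit of the overlapping peak was a median of 9 bp away for peaks of 2 h MCF10A cells compared with 1 h, and within 50 bp in 69 of 77. Seen from 1 h MCF10A cells the median to 2 h was 14 bp, and 69 of 103 were within 50 bp. For 1 h knockdown compared with 1 h MCF10A cells the median was 15 bp, and 36 of 47 were within 50 bp. Compared with 2 h MCF10A cells it was 34 bp, and 25 of 47 were. The 6 peaks of 2 h knockdown cells had medians of 120 and 122 bp to 1 h and 2 h MCF10A cells, with 3 within 50 bp each. To 1 h knockdown cells their median was 15 bp, with 5 within 50 bp. At shared summits within 50 bp of each other the 2 quantities behind the fold enrichment can be set side by side. In the largest run most pileups were near the limit, so the pairs there are not read for the ChIP. Pairs outside it are given separately. Whether such a limit also held for the control was not tested, so the control is given for those pairs as well.

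From 1 h to 2 h in MCF10A cells, the fold enrichment was higher at 2 h at 59 of 69 shared summits, with medians of 2.10 and 2.77. The control background, relative to the lowest of its list, was lower at 2 h at all 69, with medians of 41.5 times at 1 h and 30.6 times at 2 h. In the largest run, with 39 of the pairs, the fold enrichment was higher at 2 h at 36. At the 30 pairs outside it, the fold enrichment was higher at 2 h at 23, with medians of 2.96 and 3.62. The control there was 12.4 and 6.81 times the lowest of the list in the median, and lower at 2 h at all 30. The ChIP pileup outside the run was 52.5 reads at 1 h and 42 reads at 2 h in the median, higher at 1 h at 20 and at 2 h at 9, and relative to the same lowest background it was lower at 2 h at all 30. Other nuclear peaks moved the same way, with a lower relative control at 2 h at 483 of 512 shared summits and a higher fold enrichment at 412.

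Between the cell populations at 1 h, the fold enrichment was higher in MCF10A cells at 35 of 36 shared summits, with medians of 1.97 and 1.66 in knockdown cells. The relative control background was higher in knockdown cells at all 36, with medians of 68.3 times in MCF10A and 83.4 times in knockdown cells. Of these pairs 30 lay in the largest run, where the pileup was higher in MCF10A cells at 21 and in knockdown cells at 8, with limits of 220 and 212 reads. At the 6 pairs outside it, the pileup was 54.0 reads in MCF10A and 59.0 reads in knockdown cells in the median, higher in knockdown cells at 4 and in MCF10A cells at 1. The fold enrichment was higher in MCF10A cells at all 6, with medians of 3.77 and 2.46. The control was 10.7 and 17.1 times the lowest of the list, higher in knockdown cells at all 6. Among other nuclear peaks the relative control was higher in knockdown cells at 117 of 126 shared summits. The fold enrichment was higher in MCF10A cells at 106 of them, and the relative pileup was higher in knockdown cells at 105. At 2 h the populations shared 3 such summits, with fold enrichments of 3.93 in MCF10A and 1.83 in knockdown cells and relative controls of 18.3 and 38.0 times in the median.

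**Figure D5:**
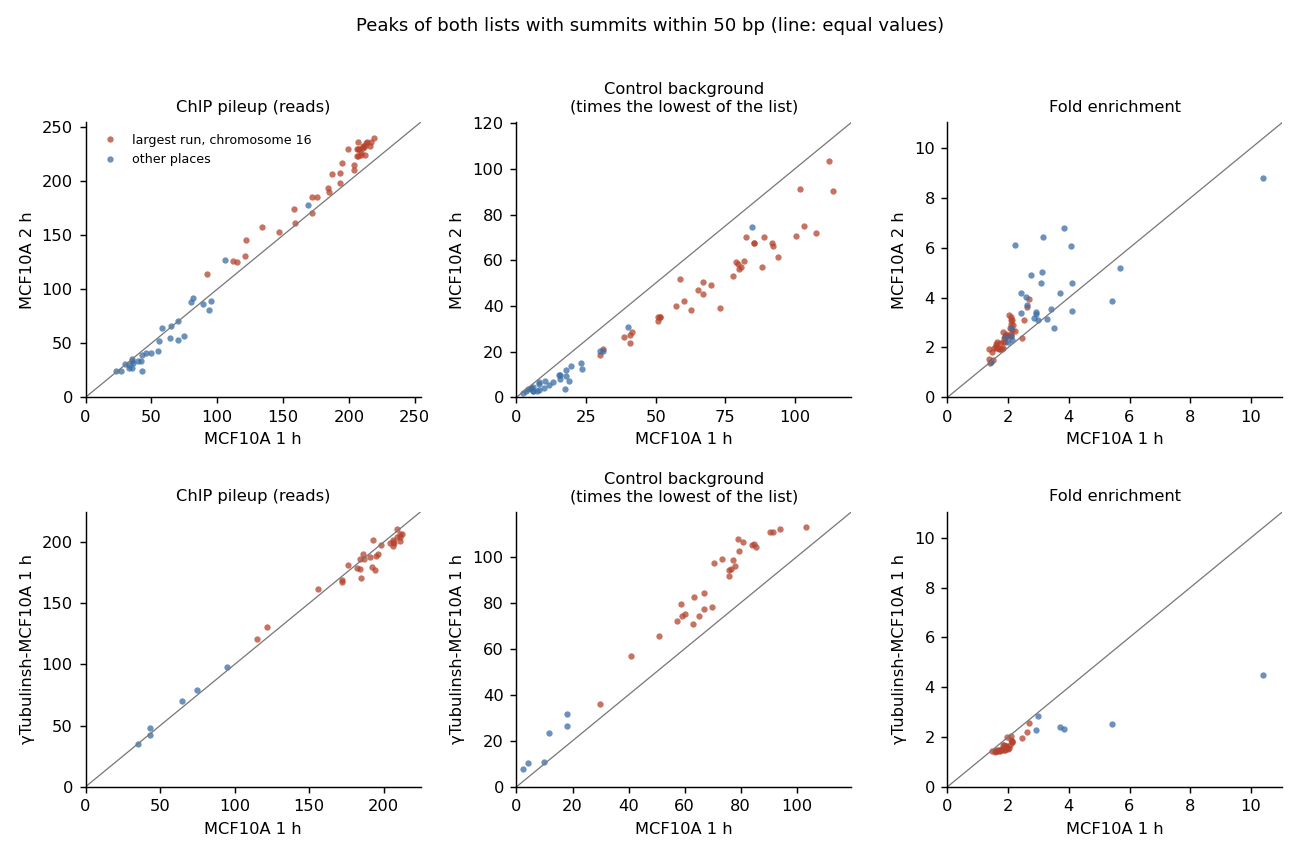
ChIP pileup in reads (left), control background as a multiple of the lowest of its list (middle) and fold enrichment (right) at summits within 50 bp of each other, for 1 h MCF10A cells (x axes) against 2 h MCF10A cells (upper row, 69 pairs) and against 1 h knockdown cells (lower row, 36 pairs). Each dot is a pair of peaks, red for the largest run of chromosome 16 and blue for other places, and the line marks equal values; all control backgrounds lie below the line in the upper and above it in the lower row, and most pileups in red are close to the limit of their lists.

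Such pairs exist only where both lists had a peak, and a place without a peak gives neither pileup nor control. Whether the shorter list of knockdown cells followed from their control was therefore not tested. The control background was high at most members in every list. It was at least 3 times the lowest of the list at 106 of 114 peaks of 1 h MCF10A cells (93.0%), all 54 of 1 h knockdown cells, 136 of 185 of 2 h MCF10A cells (73.5%) and all 6 of 2 h knockdown cells. Other nuclear peaks had such a control in 81.3%, 88.5%, 75.3% and 61.6%. Over all windows together, medians separated the members from the rest more clearly. They were 51.2 and 10.4 times in 1 h MCF10A cells and 78.9 and 17.4 times in 1 h knockdown cells. At 2 h they were 9.96 and 5.76 times in MCF10A and 45.2 and 7.76 times in knockdown cells. In MCF10A cells the largest run was above other nuclear peaks, with 76.0 times at 1 h and 46.3 times at 2 h. So were chromosomes 17, 18 and 19 at both times. Chromosome 20 was below them, with 5.19 and 2.10 times. The short-arm runs of chromosome 16 named above were also below. They had 8.64 and 4.03 times at 1 h and 2.70 and 2.10 times at 2 h. Chromosome 20 was also below in 1 h knockdown cells, with 11.0 times.

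The windows also held peaks with a control near that of an average place. A background under 1.5 times the lowest of the list was found at 20 peaks of 2 h MCF10A cells (10.8%, compared with 8.69% of other nuclear peaks), of which 10 were on chromosome 20, 7 on chromosome 16 and 3 on chromosome 19. 1 h MCF10A cells had 1 such peak, from 31952459 to 31952590 on chromosome 16, where the ChIP was enriched 6.25-fold. This was 0.877% of its members, compared with 5.97% of other nuclear peaks. Knockdown cells had none, compared with 7.69% of other nuclear peaks at 1 h and 34.2% at 2 h. Over all windows together, the median fold enrichment of the members was below that of other nuclear peaks in each list but closest in 2 h MCF10A cells, with 2.08 and 3.41 in 1 h MCF10A cells, 1.68 and 2.63 in 1 h knockdown cells, 3.21 and 3.86 in 2 h MCF10A cells, and 1.86 and 3.41 in 2 h knockdown cells. In MCF10A cells the largest run, with medians of 1.86 at 1 h and 2.44 at 2 h, and chromosomes 17, 18 and 19 were below other nuclear peaks. Chromosome 20 was above them, with 4.12 and 4.96. The 2 short-arm runs of chromosome 16 were also above, with 3.49 and 3.92 at 1 h and 5.02 and 5.23 at 2 h.

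On chromosome 16, the highest scores of 3 lists fell on a single place. In 1 h MCF10A cells it lay from 46422031 to 46422230 (score 239), in 1 h knockdown cells from 46422063 to 46422197 (152) and in 2 h MCF10A cells from 46422040 to 46422244 (459). The summits were at 46422134, 46422115 and 46422133. At this place the pileups were 187, 186 and 207 reads, the control backgrounds 71.0, 84.3 and 56.6 reads, and the fold enrichments 2.61, 2.19 and 3.61. 2 h knockdown cells had no peak there.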

How the data were processed

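ChIP-seq of γ-tubulin was analysed from 4 deposited peak lists, 1 per condition. The authors mapped Ion Proton reads with Bowtie 1.0.0, keeping reads with a single position, to hg19 with the mitochondrial genome of Ensembl, and called peaks with MACS2 2.1.1, pooling both ChIP libraries of a condition. Keeping single positions removes reads from identical repeat copies, so satellite arrays are represented only where copies differ. The lists hold peaks under the minimum of 200 bp that the methods give for differential calling, and they were read as calls against the control. The deposited values are a score (the whole part of 10 times the −log10 q-value), a fold enrichment (a ratio at the summit, with 1 added to ChIP and control), and −log10 of the p-value and of the q-value, all by the authors.

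Fold enrichment and p-value together fix, for a Poisson test, the reads of ChIP (pileup) and the control background at a summit, and both were solved for. Pileups came out whole (within 0.02 reads) in 100% of peaks, after division by 0.943 in 2 h knockdown cells. The step was checked on simulated peaks. The lists give no read totals, so depth is known only through the lowest control background of each list, which was 1.40 and 1.28 reads at 1 h in MCF10A and γTubulinsh-MCF10A (knockdown) cells and 1.69 and 1.66 reads at 2 h. With 1 list per condition, no replicate error and no test between conditions is given.

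Positions count from 1. Peaks were counted per window, joined within 5 kb or 100 kb, and called shared at an overlap of at least 1 bp. Paired summits lay within 50 bp. Peaks named in the text were the highest score per list and window, the loci in all lists, the cluster with the most peaks and the longest stretch without a summit per window, while further runs were named after their values were seen. The windows and lists of named peaks were chosen with earlier results of these data known. Scripts ran under Python 3.11.15, using scipy 1.17.1, pandas 2.3.3, numpy 2.4.6 and, for plots, matplotlib 3.10.9. Alternatives were other score and length minimums, merging within 1000 bp, shifted windows, chromosomes left out, other overlap rules and another measure of the genome background. Reads, sequences and genes of hg19 were not analysed here.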

Additional observations from a re-analysis of the deposited data

Results flagged for a closer look

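Between 1 h and 2 h the counts went up in MCF10A cells and down in the knockdown. As each condition has a single list, this difference was not tested. Over the 5 windows the count of MCF10A cells rose by 71, while that of knockdown cells fell by 48. On chromosome 16 the first rose by 15 and the second fell by 40, on chromosome 17 the first rose by 20 and the second fell by 1, and on chromosome 20 the first rose by 14 and the second fell by 7. Chromosomes 18 and 19 had no peak of knockdown cells at either time.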

How the results depend on the processing

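No paired analysis was possible because the peaks of a condition were called on its pooled libraries and no test across samples was made, and for this reason no replicate could be left out. Lists are given as 1 h MCF10A, 1 h knockdown, 2 h MCF10A, 2 h knockdown. A score minimum at the median of the pooled lists (median score) left 41, 11, 100 and 1 peaks, at their 75th percentile 17, 2, 62 and 1, and a length of at least 200 bp 52, 12, 97 and 0. Merging within 1000 bp gave 41, 23 and 65 in the first 3 lists. Without chromosome 16 there were 26, 9, 82 and 1 peaks. Without the largest run, an alternative chosen after seeing the data, there were 47, 13 and 1 in 1 h MCF10A, 1 h knockdown and 2 h knockdown. The median spacing was 410 and 515.5 bp in 1 h MCF10A cells and 2 h when measured from the end of a peak to the start of the next, and 1306, 6499 and 1174 bp in the first 3 lists with the median score as minimum. With an overlap of at least 50% of both peaks, 45.6% of peaks of 1 h MCF10A cells were shared with 2 h and 28.1% of those at 2 h with 1 h, 46.3% of 1 h knockdown with 1 h MCF10A, 0% of 2 h knockdown with 2 h MCF10A and 50% with 1 h knockdown. With the median score as minimum, 31.0% of 2 h MCF10A peaks were shared with 1 h, 72.7% of 1 h knockdown with 1 h MCF10A and 0% of 2 h knockdown with 1 h, the last resting on 1 peak. Without chromosome 16, 28.05% of 2 h MCF10A peaks were shared with 1 h and 55.6% of 1 h knockdown with 1 h MCF10A. Without the largest run, 76.6% of 1 h MCF10A peaks were shared with 2 h, 27.1% of 2 h MCF10A with 1 h and 46.2% of 1 h knockdown with 1 h MCF10A. These settings remove peaks, or ask for more overlap, by construction. The median length in 2 h MCF10A cells was 230.5 bp with the median score as minimum, and the control of 1 h knockdown cells 61.3 times with the 5th percentile of the background in place of the lowest. The other 62 values moved by less than the margins set for them.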
